A study of Arabidopsis thaliana with 26 samples.

Results

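Abscisic acid (ABA) was given to Arabidopsis T87 cells together with either salicylic acid (SA) or methyl jasmonate (JA), and the cells were collected after 3 h. The comparison described here sets the 4 arrays of cells that received 2 hormones against the 4 arrays of cells that received SA or JA alone, so that ABA is what the first pool received in addition. These are 8 of the 26 arrays of the series, chosen by their labelled treatment and time and by no measured value. T87 is a suspension culture of undifferentiated cells, so no tissue or organ is represented, and the labels name no mutation or transgene in any group. The labels give ABA at 25 µM, SA at 300 µM and methyl jasmonate at 100 µM, and the control cells received 0.6% ethanol. The other groups used below are ABA alone (3 arrays) and ethanol (2 arrays) at 3 h, and the same treatments at 24 h. Each of the combined and single-hormone groups held 2 arrays at each time. The labels do not name separate cultures for the arrays of a group, so the p-values rest on a spread between arrays that may be only technical.

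ABA is the hormone that plants build up when water is short, in cold and in ripening seeds. It binds soluble receptors that inhibit clade A protein phosphatases, which frees SnRK2 kinases to activate bZIP transcription factors such as the ABFs and ABI5. Their targets include genes for late embryogenesis abundant (LEA) proteins and dehydrins, small hydrophilic proteins that accumulate as cells dry out. SA acts through NPR1 in defence against biotrophic pathogens, and JA acts through the COI1 receptor and MYC transcription factors in defence against insects and necrotrophs. ABA is known to interact with both pathways.

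The titles and the source names of the 4 combined arrays at 3 h contradict each other on which of them received SA and which JA. Pooling all 4 gives the same comparison under either reading. Genes of the JA and SA lists differed between the arrays along the titles. JRG21, which inactivates jasmonate by hydroxylation, stood at log2 levels of 10.43 and 11.31 on the arrays titled ABA with JA. The arrays titled ABA with SA read 3.06 and 2.94, JA alone read 11.98 and 11.16, and SA alone read 3.46 and 3.24. For AT5G03350, a gene of the SA list, the arrays titled ABA with SA read 6.98 and 8.22, and those titled ABA with JA read 4.14 and 4.16. Both genes thus fell on the side that the titles give, and against the source names. Below, "titled" marks these arrays.

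Values are log2 signals from RMA, 1 per probe set and array. They compare 1 probe set between arrays, not genes with each other. The deposited medians of the 4 combined arrays at 3 h lay between 4.89 and 4.98, below those of all other arrays, of which the single-hormone arrays at 3 h lay between 5.10 and 5.13. The part of this offset in the results was not tested, but the counts under other scalings are given beside the main ones. On a scale on which the ethanol controls at 3 h average 0 and those at 24 h average 1, computed over the 2538 probe sets called between them (11.2%, with 1653 or 7.27% higher at 24 h), the combined arrays lay between -0.194 and -0.146. The single-hormone arrays lay between -0.0586 and 0.203, with replicate 2 of JA the highest, and ABA alone at 3 h lay between 0.440 and 0.569. Guard cell and root hair lists each had 1 measured marker, FMA and EXPA7, and neither was called in the pooled comparison (log2 difference 0.27 and 0.32, adjusted p = 0.236 and 0.363). In a bulk sample, fewer cells of a type and less RNA per cell cannot be told apart.

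**Figure D1:**
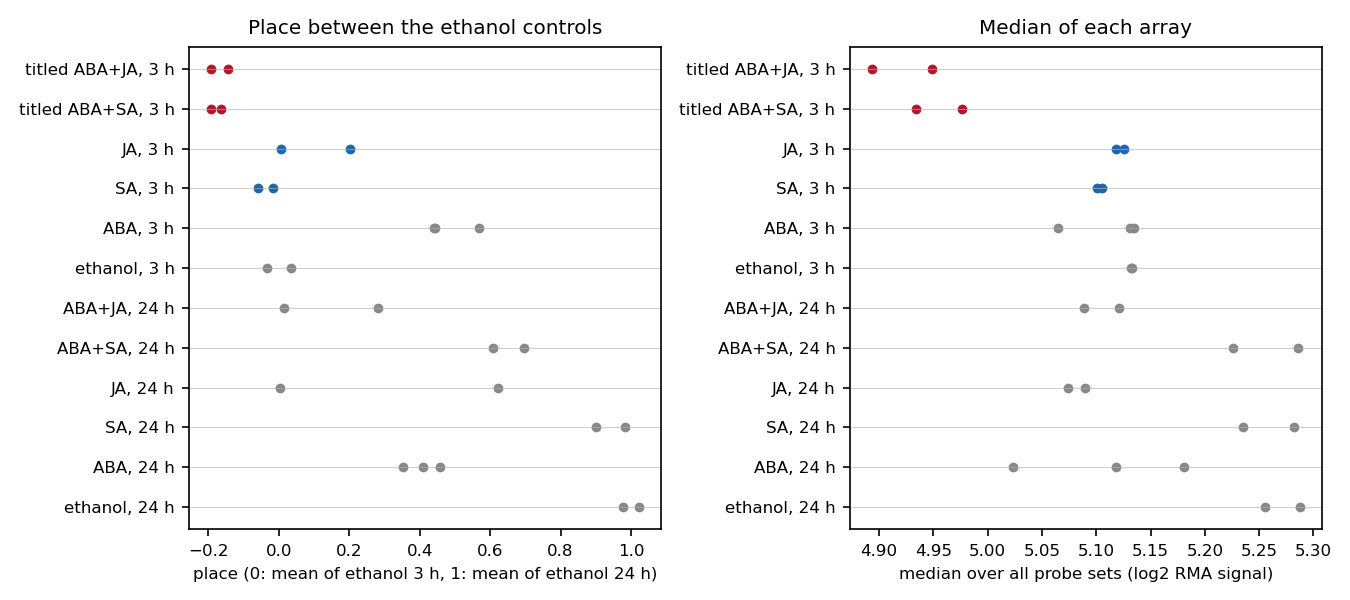
Place of each array between the ethanol controls at 3 h (0) and at 24 h (1), and the median log2 signal of each array, by group. The 4 combined arrays at 3 h lie just below 0 on the first scale and have the lowest medians on the second.

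Adding ABA to SA or JA for 3 h changed 6250 of 22746 probe sets (27.5%) in limma's moderated test at a Benjamini-Hochberg adjusted p under 0.05. Of these, 2660 (11.7%) were higher and 3590 (15.8%) were lower with ABA. The largest changes were mostly increases, since 193 called probe sets were at least 8-fold higher and 28 were at least 8-fold lower. With a threshold of 2-fold the counts were 1315 higher and 1705 lower. Every combined array lay above every single-hormone array for 2145 called probe sets (9.43%) and below it for 2981 (13.1%). The higher calls made up 42.6% of all calls as deposited, 45.7% after quantile scaling and 64.6% after centring each array on its median, which moved the median difference of all probe sets from 0.04 to 0.21. A single gene could be named for 1384 of the higher and 1959 of the lower calls. All 30 genes named from the extremes of this comparison kept their call and direction under each of 19 alternatives. They were chosen on these same arrays as the largest changes without overlap, so this was largely set by the choice. Grouping by source name, among the 19, cannot change the pooled contrast.

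Most of the measured ABA targets rose. Of 24 members of the ABA target list, 8 were measured under their own name. Of the 8, 7 were called higher (87.5%, against 11.7% of all probe sets) and 0 lower (against 15.8%). Their median log2 difference was 3.71, against 0.04 for all probe sets. The list was chosen with earlier results of these data known. AT3G02480, a member of this list, read 12.22 and 10.52 on the arrays titled ABA with JA and 12.06 and 12.11 on those titled ABA with SA. With SA alone it read 3.15 and 3.81, and with JA alone 3.69 and 3.79. The groups lay far apart, and the difference was 8.12 ± 0.665 (SE) on the log2 scale, or 278-fold (limma, adjusted p = 1.24e-07). LEA4-5, a group 4 LEA protein, read 9.05 and 8.00 (titled ABA with JA) and 9.30 and 9.72 (titled ABA with SA), against 3.16 to 3.62 on the single-hormone arrays. This was a rise of 5.58 ± 0.28 (limma, adjusted p = 4.47e-10). The dehydrin LTI30 read 10.94, 11.79, 11.18 and 12.06 on the combined arrays, 3.29 and 2.56 with SA, and 5.81 and 10.13 with JA. The groups did not overlap, but replicate 2 of JA alone lay close to the combined arrays, and the difference was 6.05 ± 0.736 (limma, adjusted p = 8.06e-06).

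The other ABA targets covered a range of sizes. AT3G15670 rose by 3.96, COR15A, a cold-induced protein of the chloroplast stroma, by 3.47, and the dehydrin COR47 by 2.96. COR15B, a close relative of COR15A, rose by 1.39 ± 0.373 (limma, adjusted p = 0.00873), a call lost without replicate 2 of titled ABA with SA (adjusted p = 0.0549). On that array it stood at 6.31, above the other 3 combined arrays at 4.0, 4.72 and 5.16. HIS1-3, a drought-induced linker histone, was not called (1.14, adjusted p = 0.243). Its levels ranged widely in both pools, from 5.53 to 7.83 with ABA and from 3.44 to 7.28 without.

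A wider list of LEA proteins was written after the extreme genes had been seen, and its count therefore describes them. Of its 35 measured members, 20 were higher (57.1%, against 11.7% of all probe sets) and 1 was lower, with a median of 0.92. LEA18 read 7.29, 6.33, 6.98 and 7.93 on the combined arrays and 2.59 to 2.90 on the single-hormone arrays, a rise of 4.35 ± 0.56. The dehydrin LEA read 6.34, 3.92, 7.29 and 6.13 against 3.27 to 3.58, a rise of 2.54. All combined arrays lay above all single-hormone arrays for both genes, although replicate 2 of titled ABA with JA was low for each. The 1 member that fell was AT1G54410, the dehydrin HIRD11, at 8.25, 8.99, 9.74 and 10.30 with ABA and 10.51, 11.54, 10.52 and 11.87 without. It fell by 1.79 ± 0.421 (limma, adjusted p = 0.00345), and with ABA alone by 3.35.

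Among the 15 genes that rose most, several have no name in the reference table beyond their locus. AT1G49450 rose most, from 3.32 and 2.92 with SA and 2.83 and 2.54 with JA to 11.19 and 10.44 (titled ABA with JA) and 11.73 and 11.32 (titled ABA with SA). The groups were separated by more than 7 log2 units, and the difference was 8.27 ± 0.497, or 308-fold (limma, adjusted p = 4.47e-09). AT1G24600 read 10.37, 9.30, 10.37 and 9.95 against 2.72 to 3.02, a rise of 7.09 ± 0.287 (adjusted p = 3.09e-11). AT3G58450 read 9.58, 9.04, 9.76 and 9.29 against 3.15 to 3.71, a rise of 6.01 ± 0.459. For both genes the arrays within a pool differed by about 1 log2 unit or less. SAG29, the sugar exporter SWEET15 that is induced in ageing leaves, read 10.60, 8.90, 9.79 and 9.70 against 4.30 to 4.83. It rose by 5.30 ± 0.298 (limma, adjusted p = 2.33e-09). The remaining genes of the 15 were AT5G24080 (6.08), AT4G30470 (5.84), AT3G53040 (5.81), AT2G37870 (5.71), AT1G73390 (5.38), AtLEA4-1 (4.95), AT2G47780 (4.81) and AT1G68620 (4.74), each with its log2 rise in parentheses.

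**Figure D2:**
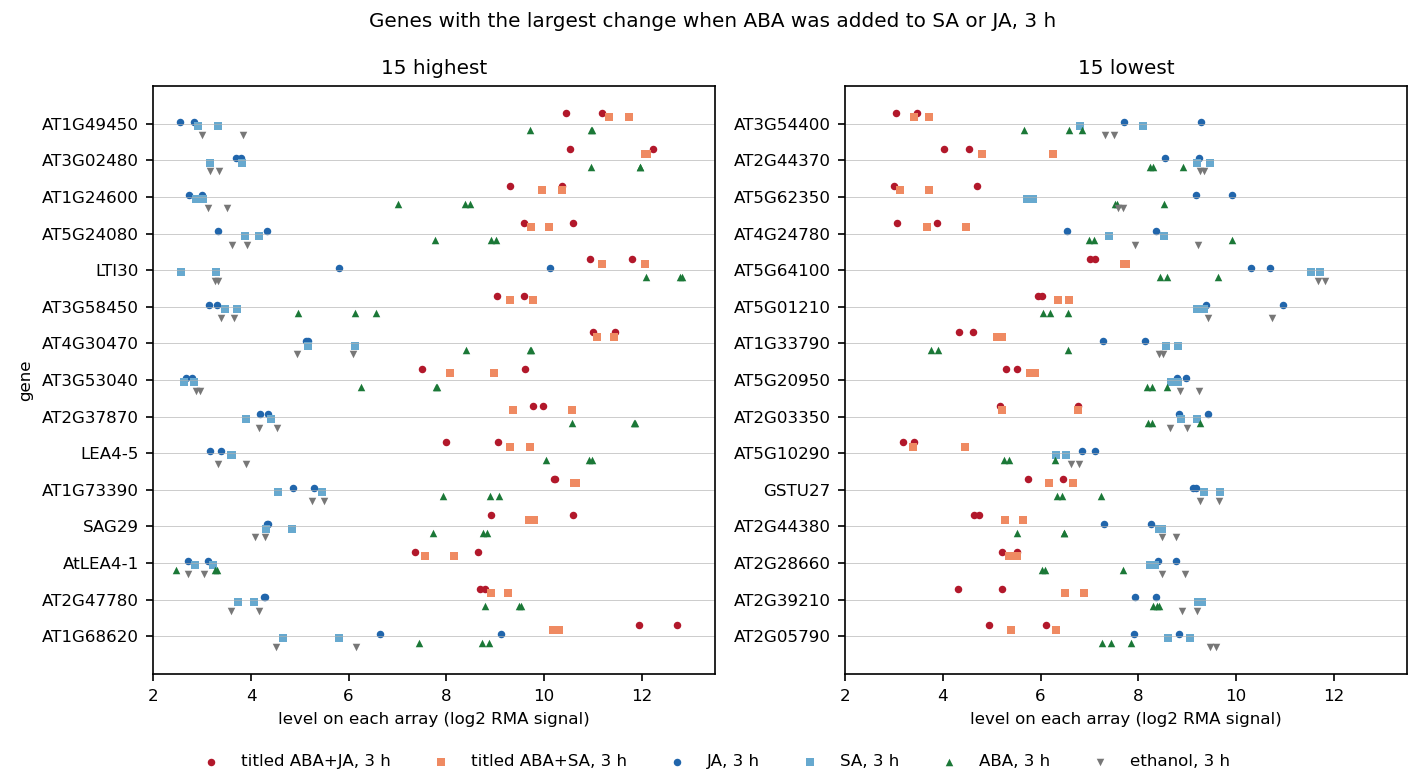
Log2 signal on each array at 3 h of the 15 genes that rose most and the 15 that fell most with ABA added to SA or JA. Points of the 4 combined arrays lie apart from those of the 4 single-hormone arrays in every row, as the choice of these genes required.

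The 15 genes that fell most fell by less than the first 15 rose, from 2.91 to 4.57 on the log2 scale. AT3G54400 read 3.04, 3.47, 3.40 and 3.72 with ABA, and 6.80, 8.11, 7.72 and 9.29 without. It fell by 4.57 ± 0.551, or 23.8-fold (limma, adjusted p = 7.27e-06), with the single-hormone arrays spread over more than 2 log2 units and the combined arrays over less than 1. AT5G20950 read 5.29, 5.52, 5.78 and 5.88 against 8.67, 8.82, 8.80 and 8.98, so that all arrays of a pool lay close together. It fell by 3.20 ± 0.191 (adjusted p = 4.3e-09). GSTU27, a tau-class glutathione S-transferase, read 5.74, 6.46, 6.18 and 6.67 against 9.68, 9.35, 9.13 and 9.19. The pools did not overlap, and it fell by 3.08 ± 0.198 (adjusted p = 1.05e-08). AT2G44370 fell by 4.21, AT5G62350 by 4.03, AT4G24780 by 3.94, AT5G64100 by 3.67, AT5G01210 by 3.50 and AT1G33790 by 3.38. AT2G03350, AT5G10290, AT2G44380, AT2G28660, AT2G39210 and AT2G05790 fell by 3.11 to 2.91. Except for GSTU27, the reference table gives these 15 genes no name beyond the locus.

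Genes of autophagy were among those that rose. The autophagy list, also written after the extreme genes had been seen, had 13 measured members. Of these, 6 were higher (46.2%, against 11.7% of all probe sets) and 0 lower, with a median of 0.58. After median centring 10 were higher, beside 4979 of all 22746 probe sets. The median was 0.35 without replicate 2 of JA alone. A family of autophagy genes picked by name had 3 of 9 higher (33.3%), with a median of 0.38. ATG8H, 1 of the ubiquitin-like proteins that coat the forming autophagosome, read 9.15, 8.97, 8.82 and 8.93 with ABA and 5.68, 4.99, 6.35 and 6.47 without. It rose by 3.09 ± 0.316 (limma, adjusted p = 1.26e-06), and the combined arrays agreed to within 0.4 log2 units. Other ATG8 genes rose by less, APG8A by 1.47 and ATG8E by 1.21, as did ATG3, the E2-like enzyme of ATG8 lipidation, by 0.83. Ubiquitin ligases of ABA and drought signalling, on a list also written after the extreme genes had been seen, were called in both directions. Of 5 measured members, 2 were higher (40.0%) and 1 lower (20.0%), against 11.7% and 15.8% of all probe sets. Their median was -0.44. PUB19, a U-box ligase of drought responses, read 9.49, 7.98, 9.98 and 9.17 against 4.84 to 5.56 and rose by 3.92. AT3G13672, named SINA2, read 7.74, 7.32, 7.62 and 8.12 against 3.10 to 3.77 and rose by 4.37. For both the pools lay well apart. PUB22, a U-box ligase, read 6.29, 6.34, 5.12 and 7.23 against 7.58 to 8.60 and fell by 2.04 (adjusted p = 0.00789). It was not called when replicate 1 of titled ABA with SA was left out.

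UDP-glycosyltransferases, which attach sugars to hormones and other small molecules, had 43 measured members by name, of which 11 rose (25.6%, against 11.7% of all probe sets) and 4 fell. Their median was 0.22. The count of those that rose was 20 after median centring and 7 without replicate 2 of JA alone. UGT85A5 showed the largest rise, from 3.29 to 4.71 on the single-hormone arrays to 7.78, 7.65, 8.77 and 7.99, a difference of 3.94 ± 0.441 (limma, adjusted p = 3.46e-06). UGT71B6 and UGT71C5 can each attach glucose to ABA. UGT71B6 read 3.58, 3.22, 3.45 and 4.36 against 2.77 to 2.93, a rise of 0.81 ± 0.169 (adjusted p = 0.00128). UGT71C5 read 4.14, 4.39, 5.23 and 5.43 against 5.81 to 6.16 and fell by 1.25 ± 0.267 (adjusted p = 0.00162). Neither gene's pools overlapped, and the 2 moved in opposite directions. Of 24 named cytochromes P450, 2 rose (8.33%, below the 11.7% of all probe sets) and 0 fell. CYP84A4 rose by 1.70 ± 0.222. After median centring, which raised the higher calls over all 22746 probe sets to 4979, 9 of the 24 rose. Sugar transporters had 3 of 17 higher (17.6%, against 11.7% of all probe sets) and 0 lower, with SWEET2 at 1.59 beside SAG29. This count was 6 after median centring and 1 when any of 6 of the 8 arrays was left out.

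Nuclear genes of photosynthesis and chlorophyll synthesis were on a list that was likewise written after the extreme genes had been seen. Of its 13 measured members, 6 were lower (46.2%, against 15.8% of all probe sets) and 0 higher, with a median of -0.66. The lower count ran from 4 to 8 across the alternatives. A family picked by name, nuclear photosynthesis, had 0 of 5 members called, with a median of -0.28. With ABA alone at 3 h, 11 of the 13 were lower (median -1.51), against 10.3% of all probe sets. PORB, which reduces protochlorophyllide in the light, read 6.08, 7.16, 6.74 and 6.96 against 9.06 to 9.34 and fell by 2.47 ± 0.203 (limma, adjusted p = 1.27e-07). The Calvin cycle enzyme PRK read 7.13, 8.95, 8.14 and 9.08 against 9.65 to 10.08 and fell by 1.51. The pools did not overlap for either, but replicate 1 of titled ABA with JA was more than 1 log2 unit below the rest in PRK. CHLM, a methyltransferase of chlorophyll synthesis, fell by 1.22. Among 9 mitotic genes only AUR2, an Aurora kinase, was called (11.1% higher, near the 11.7% of all probe sets). AUR2 read 7.36, 7.27, 6.96 and 7.02 against 3.90, 4.86, 4.65 and 5.92. It rose by 2.32 ± 0.336 (adjusted p = 4.5e-05), while the median of the 9 was -0.29. Other families are given beside 11.7% higher and 15.8% lower of all probe sets. Among 22 bZIP factors 1 was higher and 1 lower (4.55% each). Expansins and xyloglucan endotransglucosylases had 2 of 29 higher (6.9%) and 1 lower (3.45%). Glutathione S-transferases had 2 of 12 higher (16.7%) and 1 lower (8.33%).

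Few genes of the SA and JA pathways were measured. Their counts stand beside 11.7% higher and 15.8% lower of all probe sets. The SA list had 7 measured members, with 1 higher, 3 lower and a median of -0.66. Leaving out 1 array gave 1 or 2 higher and 1 to 3 lower, and median centring gave 3 and 1. UGT76B1, which glucosylates SA and isoleucic acid, read 11.52 and 11.96 on the arrays titled ABA with SA against 10.30 and 11.35 with SA alone. On the arrays titled ABA with JA it read 8.04 and 8.90 against 5.85 and 6.14 with JA alone, and the pooled rise was 1.69 (limma, adjusted p = 0.000577). AT5G03350 fell by 1.81 (adjusted p = 7.4e-05), from 10.58 and 11.74 with SA alone and 4.03 and 4.39 with JA alone to the levels given above. The pools of both genes overlapped, since SA and JA arrays lay far apart. With that spread counted as error, neither call held, at an adjusted p of 0.423 for UGT76B1 and 0.526 for AT5G03350. SAG101, a defence regulator, fell by 0.69 (adjusted p = 0.0376). WRKY53, a senescence and defence regulator, fell by 2.30 (adjusted p = 0.0495). The call for WRKY53 was lost in 12 of 19 alternatives, with an adjusted p of up to 0.231, and that for SAG101 in 7, up to 0.151.

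JA genes were measured in 4 lists. The 1 lower call among 5 JA breakdown genes (20.0%) and among 7 JA targets (14.3%) was near the 15.8% of all probe sets. OPCL1, a ligase of jasmonate synthesis, read 5.36, 5.70, 5.18 and 5.55 with ABA, 6.26 and 6.24 with SA, and 7.69 and 7.64 with JA. All combined arrays lay below all single-hormone arrays, and it fell by 1.51 ± 0.31 (limma, adjusted p = 0.00116). MYC4, a transcription factor of the JA pathway, read 3.34, 2.88, 3.01 and 3.00 against 3.75, 4.53, 5.0 and 5.56 and fell by 1.65 ± 0.281 (adjusted p = 0.000219). MYC3 gave -0.06 and was not called. Of 5 measured genes of the JA breakdown list, AT2G38240 fell by 1.03 (adjusted p = 0.00512, or 0.755 with the spread between SA and JA arrays counted as error). On the arrays titled ABA with JA it stood at 8.84 and 9.42, below JA alone at 11.19 and 11.05. Of 7 JA targets, 1 was called, NAI2, which organises endoplasmic reticulum bodies, and it fell by 1.79 (adjusted p = 0.0207), a call lost in 5 of 19 alternatives.

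Few probe sets were called between the 2 combined groups, in a comparison of 2 arrays with 2 whose power was not simulated. Between titled ABA with JA and titled ABA with SA, 102 probe sets were called (0.448%), or 58 without replicate 2 of titled ABA with SA, and between JA alone and SA alone 146 (0.642%). Of the 6250 pooled calls, 64 (1.02%) were also called between the 2 combined groups. Of the 30 genes named from the extremes, 1 was, AT2G39210, at 4.31 and 5.22 on the arrays titled ABA with JA and 6.51 and 6.89 on those titled ABA with SA. With groups by title, the effect of ABA beside JA differed from its effect beside SA at 4 probe sets (0.0176%), and with groups by source name at 228 (1%). AT5G03350 was among the 4, with the difference between the effects at 3.50 on the log2 scale.

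ABA alone at 3 h, against ethanol, changed 4115 probe sets (18.1%), 1778 higher (7.82%) and 2337 lower (10.3%). No array is shared between this comparison and the pooled one. Of the 1778 higher with ABA alone, 775 were also higher when ABA was added to SA or JA, which is 43.6% of the first list and 29.1% of the second. Of the 2337 lower, 1117 were also lower, 47.8% of the first list and 31.1% of the second. Directions were opposite for 197 probe sets higher with ABA alone and for 46 lower with it. Across all probe sets the 2 changes had r = 0.537, as a description. Of the 15 genes that rose most, 14 were higher with ABA alone, and of the 15 that fell most, 7 were lower.

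The test of the difference between the 2 ABA effects called 2529 probe sets (11.1%), 1110 higher (4.88%) and 1419 lower (6.24%) with ABA added to SA or JA. Leaving out 1 ethanol array at 3 h left 1237 or 1142 calls, and averaging replicates 2 and 3 of ABA alone, which correlated at 0.9975, left 2140. ABA alone and the combined arrays also differed in place between the ethanol controls, as given above, and the part of this in the difference was not tested. AtLEA4-1, a group 4 LEA protein, differed most clearly among the 15 genes that rose most. It read 8.64, 7.36, 8.15 and 7.57 with 2 hormones, 2.71 to 3.22 with SA or JA, 2.47, 3.30 and 3.27 with ABA alone, and 2.71 and 3.04 with ethanol. Among the arrays at 3 h, those with ABA alone lay on the ethanol level, and those with 2 hormones were high. At 24 h ABA alone was also high, at 6.99, 4.80 and 6.14, against 2.81 and 2.46 with ethanol. At 3 h its rise of 4.95 ± 0.392 compared with 0.14 for ABA alone, a difference of 4.82 ± 0.64 (limma, adjusted p = 0.000212).

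AT3G58450 rose by 6.01 with ABA added and by 2.36 with ABA alone, a difference of 3.65 (limma, adjusted p = 0.00456). AT1G24600 rose by 7.09 and by 4.64, a difference of 2.45 (adjusted p = 0.00282). AT1G73390 differed by 2.11 in the same sense. For LEA4-5 the rise with ABA alone was the larger, 7.03, with a difference of -1.45 (adjusted p = 0.0499) that was lost in 19 of 25 alternatives, and for COR15B it was 4.24, with a difference of -2.85 (adjusted p = 0.00613). These 2 were the ABA targets called in this difference, and the list had 0 called the other way. ATG8H differed by 1.78 (adjusted p = 0.0333) and ATG8E by 2.38 (adjusted p = 0.0176), the latter at -1.18 with ABA alone, which was not called. Of the 13 autophagy genes, 5 were higher in the difference, or 1 without either ethanol array. Among called probe sets that match 1 gene, the 5 highest differences were in genes whose arrays with ABA alone lay below both ethanol arrays. Their arrays with 2 hormones lay above all arrays with ABA alone. Choosing the largest differences favours both patterns, so they only describe these genes. AT4G01870 read 11.63, 11.25, 11.73 and 12.09 with 2 hormones, 8.63 to 11.15 with SA or JA, 5.29, 5.77 and 5.69 with ABA alone, and 10.01 and 8.52 with ethanol. Its difference of 5.04 had an adjusted p of 0.00556 (limma), or 0.0542 without replicate 1 of ethanol. AT2G20670 (6.29), AT5G19120 (5.32), AT4G37180 (5.13) and AT1G30700 (4.86) were the others, of which AT4G37180 kept its call in all 25 alternatives. AT2G20670 and AT5G19120 lost it without replicate 1 of ethanol, and AT1G30700 in 8. AT5G19120 fell in both settings, by 2.40 (adjusted p = 0.0313) with ABA added and by 7.73 with ABA alone.

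The 5 lowest differences, again among called probe sets that match 1 gene, were AT4G30650 (-5.09), AT3G47320 (-4.85), the plastid gene rpl22 (-4.50), AT2G16630 (-4.34) and AT5G62350 (-4.27). AT2G16630 read 8.23, 9.46 and 9.56 with ABA alone, 5.30, 4.51, 4.86 and 5.16 with 2 hormones, and 3.52 to 3.90 with SA or JA. It rose in both settings, by 5.63 with ABA alone and by 1.29 (adjusted p = 0.00256) with ABA added, and the arrays with 2 hormones lay between the other groups. AT5G62350 read 3.01, 4.70, 3.13 and 3.71 with 2 hormones, 5.73 and 5.85 with SA, 9.19 and 9.91 with JA, 8.54, 7.56 and 7.52 with ABA alone, and 7.58 and 7.68 with ethanol. It was low on the arrays with 2 hormones and at the ethanol level with ABA alone (0.24, adjusted p = 0.846). With the spread between SA and JA arrays counted as error, its difference was not called (adjusted p = 0.0576). AT5G20950 likewise fell by 3.20 with ABA added, against -0.70 (adjusted p = 0.0589) with ABA alone, and AT2G44370 by 4.21 against -0.81. OPCL1 differed by -1.71 (limma, adjusted p = 0.0375). For rpl22 and AT4G30650 the call was lost in 12 and 13 of 25 alternatives.

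**Figure D3:**
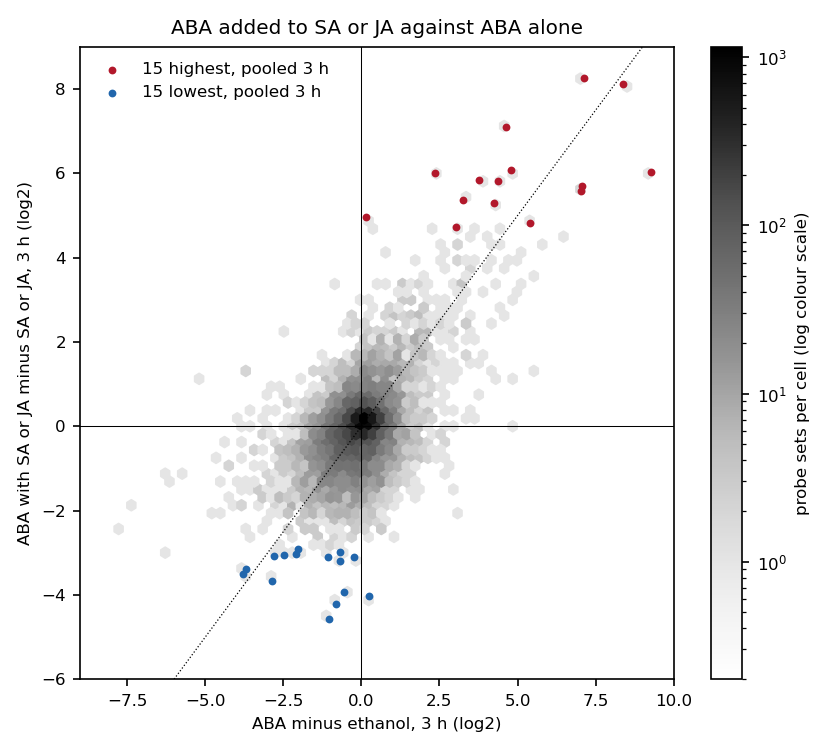
Log2 change with ABA added to SA or JA at 3 h (vertical) against log2 change with ABA alone over ethanol at 3 h (horizontal), as density over 13436 probe sets that match 1 gene, with the 15 highest and 15 lowest genes as points and equal change as a dotted line. AtLEA4-1 lies near 0 for ABA alone and at 4.95 for ABA added.

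At 24 h the same pooled comparison gave 569 calls (2.5%), 267 higher (1.17%) and 302 lower (1.33%). Leaving out any 1 of the 8 arrays moved this count by more than 1.5 times. It was 1057 without replicate 1 and 160 without replicate 2 of JA alone, and 997 and 169 without replicates 1 and 2 of ABA with JA. It was 311 and 201 without replicates 1 and 2 of SA alone, and 239 and 289 without those of ABA with SA. The replicates of the JA groups differed in place between the ethanol controls, at 0.004 and 0.622 for JA alone and 0.0133 and 0.282 for ABA with JA. Of the 267 higher at 24 h, 176 were also higher at 3 h, which is 65.9% of the first list and 6.62% of the second. Over all probe sets 11.7% were higher at 3 h and 1.17% at 24 h. Of the 302 lower, 49 were also lower at 3 h, 16.2% and 1.36%. These are near the shares over all probe sets, 15.8% lower at 3 h and 1.33% lower at 24 h. The test of the difference between the times called 3012 probe sets (13.2%), with the change more positive at 24 h for 1889 (8.3%) and more negative for 1123 (4.94%).

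Of the 15 genes that rose most at 3 h, 14 had a lower difference at 24 h, and 5 were still called higher there. Over all probe sets 1.17% were higher at 24 h. The 15 were chosen for a large rise at 3 h, which this difference subtracts. Their choice therefore favours a lower difference. AT1G24600 read 2.55 to 3.13 on all 8 arrays at 24 h, so that its rise of 7.09 at 3 h was 0.10 at 24 h (limma, difference -6.99, adjusted p = 3.21e-08). LEA4-5 kept a rise of 2.04 (adjusted p = 0.00131), at 6.70 and 6.29 with ABA and SA, 4.09 and 4.51 with ABA and JA, and 3.02 to 3.60 with SA or JA alone. The combined arrays remained above the single-hormone arrays, most with SA. AT1G49450 and AT3G02480 were called at 24 h with 3.06 and 3.36. On replicate 1 of ABA with JA, AT3G02480 read 2.92, below all single-hormone arrays at 24 h (3.35 to 5.48), and replicate 2 read 7.62. AT1G49450 read 3.15 and 5.46 on these arrays, against 2.81 to 3.04 with SA or JA alone. AT2G37870 was the exception among the 15, with a rise of 5.71 at 3 h and 5.18 at 24 h (difference -0.52, adjusted p = 0.823). At 24 h it read 11.42 and 11.32 with ABA and SA, and 4.73 and 10.96 with ABA and JA, so that replicate 1 of the last group stood apart.

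The 15 genes that fell most included 11 with a higher difference at 24 h and 0 that were still called lower there. Over all probe sets 1.33% were lower at 24 h. Choosing genes by their fall at 3 h likewise favours a higher difference. AT3G54400 read 6.44, 6.52, 6.57 and 4.95 with 2 hormones at 24 h and 4.15 to 6.54 with 1, so that the pools overlapped, and its difference between the times was 5.47 (limma, adjusted p = 0.000185). The endoplasmic reticulum body genes NAI2 and PYK10, a beta-glucosidase, changed from -1.79 and -1.05 at 3 h to 2.17 and 2.76 at 24 h. PYK10 read 8.40, 7.46, 9.85 and 12.89 with 2 hormones at 24 h, 3.01 and 3.03 with SA, and 9.47 and 12.02 with JA. Its combined arrays were above SA alone and overlapped JA alone. With the spread between SA and JA arrays counted as error, the differences between times of NAI2 and PYK10 were not called (adjusted p = 0.268 and 0.441). GH3.3, which joins auxin to amino acids, read 11.75, 11.88, 11.73 and 11.82 with 2 hormones at 3 h and 7.67 to 10.17 with 1. At 24 h the order was turned in SA cells, at 4.88 and 3.94 with ABA and SA against 9.84 and 8.15 with SA alone. Its changes at each time were not called (adjusted p = 0.0709 and 0.225), and the difference between them was -5.28 (adjusted p = 0.0195, up to 0.0723 under the alternatives). AT5G53820 (-5.79), AT3G53040 (-5.23), AT2G44370 (3.80) and AT5G01210 (3.54) completed the genes named for this difference.

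**Figure D4:**
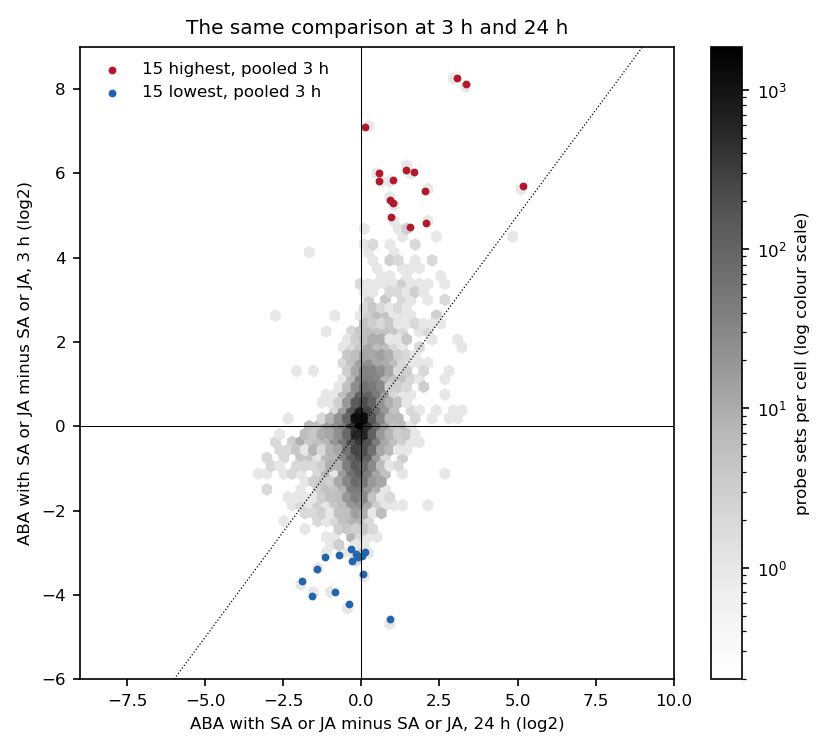
Log2 change with ABA added to SA or JA at 3 h (vertical) against the same change at 24 h (horizontal), as density over 13436 probe sets that match 1 gene, with the 15 highest and 15 lowest genes as points and equal change as a dotted line. AT1G24600 lies at 7.09 for 3 h and near 0 for 24 h, and AT2G37870 is high at both.

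The 24 h arrays give lists that share no array with the pooled comparison at 3 h. ABA alone at 24 h raised 1601 probe sets (7.04%) and lowered 2566 (11.3%). Of those raised, 639 were also higher with ABA added at 3 h, 39.9% of the first list and 24.0% of the second, and of those lowered, 1057 were also lower, 41.2% and 29.4%. SA alone at 24 h raised 82 probe sets (0.361%), of which 12 were higher and 15 lower with ABA added at 3 h. Over all probe sets 11.7% were higher and 15.8% lower, and these counts are near those shares. Of 395 raised by JA at 24 h (1.74%), 93 were higher and 63 lower, the latter also near the share over all probe sets. Of 715 lowered by JA (3.14%), 45 were higher and 280 lower, with a median of -0.37.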

How the data were processed

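Total RNA of T87 cells was hybridised to 26 single-channel arrays, per the labels. The deposited values are log2 signals made by the authors with RMA, per the submitters' processing notes, which name no version here. Of 22746 probe sets, 13436 matched 1 gene of the reference table (TAIR10.1, names only), 503 matched several and 8730 none, and all were tested. Arrays were grouped by title. One linear model of the 12 group means (limma 3.58.1, statmod 1.5.0, R 4.3.3, lmFit and eBayes) gave every contrast from the 26 arrays. P-values were adjusted by the Benjamini-Hochberg method across the probe sets of each contrast, with calls at adjusted p under 0.05. The number of arrays per group sets the precision. On simulated data the pooled comparison recovered 72% of changes of 1 and 96% of changes of 2 on the log2 scale. The simulation changed 200 of 22746 probe sets and drew independent noise for each array. In the data 27.5% were called and same-numbered arrays at 3 h deviated together, so these rates may not hold there. Named genes come from probe sets that match 1 gene. They are the 15 highest and 15 lowest called changes without overlap of the pools, the 5 highest and 5 lowest called of each difference, and the measured list members (38 of 241). Genes named from families and added lists were chosen after their values were seen. The members and lists were chosen with earlier results of these data known. Genes without a named probe set, among them those for ABA receptors and SnRK2 kinases, were not analysed here. Alternatives changed the scaling, the variance model, the arrays fitted, the replicate block and single arrays.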

Additional observations from a re-analysis of the deposited data

Results flagged for a closer look

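In 4 of 60 pools of 4 arrays tested, 1 array lay far from the other 3, where chance gives about 1 in 20. AT3G02480 stood at 10.52 on replicate 2 of titled ABA with JA. On replicate 2 of SA alone, AT4G30470 stood at 6.13 and SAG29 at 4.83. AT5G01210 stood at 10.96 on replicate 1 of JA alone.

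The log2 change with ABA added to SA or JA at 3 h differed from that with ABA alone, by limma's test of the difference, for 21 named genes. They were chosen for their pooled change or for this difference itself, so the choice bears on this count. It was the more positive for AT2G20670 (6.29), AT5G19120 (5.32), AT4G37180 (5.13), AT4G01870 (5.04), AT1G30700 (4.86), AtLEA4-1 (4.82), AT3G58450 (3.65), AT1G24600 (2.45) and AT1G73390 (2.11). It was the more negative for AT4G30650 (-5.09), AT3G47320 (-4.85), rpl22 (-4.50), AT2G16630 (-4.34), AT5G62350 (-4.27), AT3G54400 (-3.52), AT2G44370 (-3.40), AT2G03350 (-2.86), AT5G20950 (-2.51), AT2G39210 (-2.30), AT5G10290 (-2.02) and LEA4-5 (-1.45). For LEA4-5 the difference was not called in 19 of 25 alternatives (adjusted p up to 0.239).

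Between 24 h and 3 h the change with ABA added differed for 29 named genes. They were chosen for their change at 3 h or for this difference itself, so the choice bears on this count. It was lower at 24 h for AT1G24600 (-6.99), AT5G53820 (-5.79), AT3G58450 (-5.46), GH3.3 (-5.28), AT3G53040 (-5.23), AT1G49450 (-5.21), AT4G30470 (-4.81), AT3G02480 (-4.76), AT5G24080 (-4.65), AT1G73390 (-4.47), LTI30 (-4.35), SAG29 (-4.28), AtLEA4-1 (-3.99), LEA4-5 (-3.54), AT1G68620 (-3.18) and AT2G47780 (-2.76). It was higher at 24 h for AT3G54400 (5.47), NAI2 (3.96), PYK10 (3.82), AT2G44370 (3.80), AT5G01210 (3.54), GSTU27 (3.10), AT2G39210 (3.09), AT2G03350 (2.98), AT5G20950 (2.89), AT2G28660 (2.87), AT2G05790 (2.59), AT5G62350 (2.46) and AT5G10290 (1.94). The difference was not called in 11 of 27 alternatives for AT1G68620 (adjusted p up to 0.313) and in 8 for AT5G62350 (up to 0.377). With the spread between SA and JA arrays counted as error, it was not called for AT3G02480 (0.089), LTI30 (0.144), NAI2 (0.268) and PYK10 (0.441). For GH3.3 it was not called in 4 alternatives (up to 0.0723). The causes were not tested.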

How the results depend on the processing

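The pooled count of 6250 ran from 5151 to 5919 when 1 array at 3 h was left out, with 2057 to 2541 higher and 2983 to 3378 lower. Under the other settings these counts stayed within 1.5 times, except that 4979 were higher after median centring. The difference from ABA alone (2529) gave 4670 calls with array weights (2073 higher, 2597 lower) and 1807 higher after median centring. Leaving out 1 array gave 1142 to 2524 (421 to 1102 higher, 683 to 1473 lower). The lowest came without an ethanol array at 3 h, and 686 were higher without replicate 2 of JA. ABA alone (4115) gave 1966 and 2170 calls without replicates 1 and 2 of ethanol, and 7882 with array weights. The difference between times (3012) gave 1577 calls with the spread between SA and JA arrays counted as error (909 higher, 668 lower) and 2141 lower after median centring. Leaving out 1 array gave 2348 to 3185 (1455 to 2028 higher, 861 to 1171 lower), and leaving out replicate 1 of both JA groups at 24 h, chosen after seeing the data, gave 2839. The overlaps with ABA alone at 24 h (639 higher, 1057 lower) stayed within 567 to 608 and 911 to 1007 when 1 array was left out. The causes were not tested. Same-numbered arrays of the 4 pooled groups at 3 h deviated together, with correlations of 0.253 to 0.504 in 6 of 6 pairs of groups. Over all 66 pairs of groups the correlations ran from -0.338 to 0.699, with 27 below 0. At 3 h, ethanol deviated with the pooled groups too (0.269 to 0.553), while ABA alone gave -0.243 to -0.021 with them. At 24 h the ethanol, SA and ABA with SA groups gave 0.586 to 0.699 with each other. The JA and ABA with JA groups at 24 h gave 0.533. Whether same-numbered arrays share a batch was not tested, and the main model holds no replicate block. With the replicate block the pooled count was 6506, and with the block within time, chosen after seeing the data, 6676.

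Among the values named, the sign turned only where no call was made. Pooled changes at 3 h, as ranges when 1 array was left out, were -0.36 to 0.33 for AT3G47320 (0.16 after median centring), -0.18 to 0.22 for EEL, -0.036 to 0.16 for AT3G11180 (-0.038 after quantile scaling), -0.34 to 0.21 for MYC3 (0.11 after median centring) and -0.24 to 0.38 for JAL33. PDF1.2 gave -0.035 after quantile scaling, and ARR15 gave 0.039 after median centring. Differences from ABA alone were -0.68 to 0.16 for AT3G02480, -0.35 to 0.96 for AT5G01210, -0.17 to 1.24 for AT1G33790 (-0.090 with the replicate block within time, -0.13 with the ABA arrays averaged) and -0.48 to 0.00024 for GSTU27. The difference between times was -2.08 to 1.04 for AT2G37870, and 1.18 without replicate 1 of both JA groups. Promoter motifs were planned and not run.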

Other observations

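Genes that make ribosomes form a group not described above. The lists below were assembled from locus identifiers and general knowledge, for which the reference table gives no names, after the extreme genes had been seen, so their counts are descriptions. Of 47 measured genes listed for the 40S subunit, 37 were lower and 0 higher with ABA added to SA or JA at 3 h, with a median of -0.67, and of 84 for the 60S subunit, 68 were lower and 0 higher, with a median of -0.82. Over all probe sets 15.8% were lower. Across the alternatives the lower count ran from 25 to 37 for the 40S list and from 54 to 68 for the 60S list. The 60S list had up to 3 higher. With ABA alone at 3 h, 20 of the 47 and 39 of the 84 were higher and 0 lower, against 7.82% higher of all probe sets. The difference between the 2 ABA effects called 36 of the 47 lower, or 17 without replicate 2 of ethanol, and 63 of the 84, against 6.24% of all probe sets. Of 27 genes listed for ribosome assembly, 24 were lower, each with all combined arrays below all single-hormone arrays, with a median of -1.54. Over all probe sets 13.1% were called lower with no such overlap. The lower count of this list ran from 23 to 25 across the alternatives. Between the ethanol controls, which received the same agent at both times, 26, 58 and 20 members of the 3 lists were higher at 24 h than at 3 h, against 7.27% of all probe sets. The part of the arrays' place between the ethanol controls in these counts was not tested.

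Named genes of this kind, also chosen after their values were seen, fell at 3 h. The RNA polymerase I subunits NRPA1 and NRPA2 fell by 1.26 and 1.51. YAO and IMP4, which act in processing the small subunit RNA, fell by 1.74 and 1.92.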
